A study of Homo sapiens with 24 samples.

Results

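Interferon-stimulated genes are the genes a cell switches on when it senses interferon, and a list of 54 of them was followed here in mRNA sequencing of human cell lines that carry extra chromosomes. The members were given by name, covering transcription factors, nucleic acid sensors, antiviral enzymes and interferon-induced genes of less settled function, and a member was described where its mean was at least 10 normalized counts. Of the 54 members, 52 reached that mean for at least 1 aneuploid line and its parental line and 41 did so for all 4. At any mean, 16742 genes were listed in all. HCT116 is a line from a human colon carcinoma and RPE1 is a line from retinal pigment epithelium immortalized with hTERT. HCT116 5/4 has 4 copies of chromosome 5 and was compared with HCT116. HCT116* 8/3 c7 has 3 copies of chromosome 8 and was compared with HCT116*, where the asterisk marks lines that make the fluorescent histone H2B-GFP. RPE1 5/3 12/3 has 3 copies of chromosome 5 and 3 of chromosome 12, the latter gained spontaneously, and was compared with RPE1. RPE1* 21/3 has 3 copies of chromosome 21 and was compared with RPE1*. Each line had 3 libraries, 24 in all, the labels name no treatment, and, apart from the spontaneous gain and HCT116 5/4, which came from another laboratory, extra chromosomes had been brought in by fusing cells with microcells. HCT116* 8/3 c7 is named as a clone that grew from a single cell, so what is particular to the clone and what comes with the extra chromosome cannot be told apart.

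Type I and type III interferons bind receptors on the cell surface and, through JAK kinases, make a complex with STAT2 and IRF9 that enters the nucleus and binds a short DNA element in the promoters of these genes. Type II interferon induces IRF1, a further activator of some of these genes. Many members also respond to viral RNA or DNA directly, through the sensors RIG-I, MDA5 or cGAS and the factors IRF3 and IRF7, and many keep a low level in cells that have met no interferon.

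The DNA element was looked for in the promoters of the members, because it is the feature by which the family is usually recognised. The members were listed by name as interferon-induced genes, so a high share with this element is built into the list and is no independent result. RefSeq promoters on GRCh38.p14, reaching from 250 bases before to 50 after each gene's start, were at hand for 43 of the 54 members, and the letters GAAANNGAA, on either strand and with overlapping matches counted, occurred in 30 of these 43 (69.8%). Among all 27305 genes with such a promoter the share was 9.86%. The 11 members without a promoter in that table were IRF7, DHX58, OAS2, OASL, MX2, GBP2, IFIT2, IFITM2, USP18, TRIM22 and PML. The stretches below belong to members whose levels the following paragraphs turn on, and they are written 5′ to 3′ on the gene's own strand with the match in capitals, which reads TTCNNTTTC where it lies on the other strand. On the first line ISG15 has 3 overlapping matches, and on the second BST2 has 2.
ISG15, chr1:1013369-1013419, plus strand: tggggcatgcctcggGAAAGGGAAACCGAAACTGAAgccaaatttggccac
BST2, chr19:17405731-17405775, minus strand: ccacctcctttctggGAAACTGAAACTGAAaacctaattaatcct
IFIT1, chr10:89392493-89392544, plus strand: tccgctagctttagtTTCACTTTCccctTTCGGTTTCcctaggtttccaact
IFI6, chr1:27672262-27672322, minus strand: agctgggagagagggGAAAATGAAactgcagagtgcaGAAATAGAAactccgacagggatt
OAS3, chr12:112938316-112938354, plus strand: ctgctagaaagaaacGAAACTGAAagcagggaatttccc
MX1, chr21:41420562-41420590, plus strand: cagaaatGAAACCGAAACTGAAttgtccg
GBP1, chr1:89065311-89065349, minus strand: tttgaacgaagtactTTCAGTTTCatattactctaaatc
SAMD9, chr7:93118092-93118130, minus strand: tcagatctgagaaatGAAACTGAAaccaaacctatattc
LGALS3BP, chr17:78979958-78979996, minus strand: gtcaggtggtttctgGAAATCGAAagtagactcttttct

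In 2 places a single match lay at the shared start of a pair of members that are read in opposite directions, and these are shown because each pair shares 1 element. The letters lie 40 bases before a start of PARP9 and 6 before that of DTX3L, its partner in a ubiquitin ligase complex. In the other place they lie 79 bases before 1 of the 2 starts of RSAD2 and just inside a start of CMPK2. RSAD2 has a further match of its own, 144 bases before its other start.
PARP9, chr3:122564322-122564350, minus strand: ggcgcaaagtTTCAGTTTCgcttccctgg
DTX3L, the same bases, plus strand: ccagggaagcGAAACTGAAactttgcgcc
RSAD2, chr2:6865796-6865824, plus strand: agcgggaaacGAAAGCGAAgcgttgcggg
CMPK2, the same bases, minus strand: cccgcaacgcTTCGCTTTCgtttcccgct
No match was in the windows of STAT2, IRF1, IRF9, DDX58, OAS1, UBE2L6, HERC6, SAMD9L, TRIM25, SP100, SP110, IFI35 and XAF1, which says only that these letters are not in those windows.

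Each value below is the mean normalized count that the study deposited for a gene, taken over the 6 libraries of an aneuploid line and its parental line together. Such a pair of lines is called here by its aneuploid line, so that the HCT116 5/4 pair holds 3 libraries of HCT116 5/4 and 3 of HCT116. The pooled mean holds no value of a single library, so no SD, no test and no change of an aneuploid line against its parental line is given, and the depth of single libraries is unknown. It limits what each line can be. The mean of either line is at most 2 times that of its pair, so where 1 pair lies over 2-fold above another, at least 1 line of the higher pair lies above both lines of the lower pair, though which line it is cannot be told. Pairs were therefore compared past 2-fold, after expressing each as a scaled mean, per 1000000 normalized counts of the pair's total, since the pairs had been normalized separately. Means below are as deposited and ratios are of scaled means. The pairs listed 14292 to 15610 genes, and a gene that a pair did not list was not read as 0. The lowest mean listed was 1.98 in the HCT116* 8/3 c7 pair and 3.25 to 3.36 in the other pairs.

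The lines carried part of the marks of their tissue. The mean of EPCAM, an epithelial adhesion protein, was 4192 and 5683 in the HCT116 pairs, 4.77 in the RPE1 5/3 12/3 pair and not listed in the RPE1* 21/3 pair, and of the 8 colon markers looked up VIL1 was listed in none of the pairs. The keratins KRT8 and KRT18, on the same list, were at 19618 and 16721 and at 12481 and 13422 in the RPE1 pairs, so they were high there as well. In the RPE1 pairs, TYR and TTR of the 7 markers of retinal pigment epithelium were not listed, RPE65 was at 10.4 and 4.58 against 287 and 194 in the HCT116 pairs, MITF was at 1439 and 1124, and PMEL, at 17.8 and 14.8, was below its 97.1 and 137 in the HCT116 pairs. VIM, FN1 and CDH2, which mark mesenchymal cells, were high in both RPE1 pairs. Of 5 leukocyte markers, CD3E was listed in none of the pairs, PTPRC only in the RPE1 pairs at 6.85 and 10.9, and CD68, a lysosomal protein that other cells also make, was at 53.4 to 1485.

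Members ranged from near the bottom to near the top of the genes ranked, and the median member stood below the middle. At a mean of at least 10 stood 49 of the 54 members in the HCT116 5/4 pair, 44 in the HCT116* 8/3 c7 pair, 47 in the RPE1 5/3 12/3 pair and 46 in the RPE1* 21/3 pair. Listed at any mean were 52, 49, 50 and 49 members in the same order. Of all genes listed, 91.7%, 88.8%, 91.5% and 91.7% reached a mean of 10, so the members were near the share of all genes. Ranked per kb of exon among the genes at or above that mean, the median member stood at percentile 47.4, 34.0, 44.7 and 42.3 in the same order. All members together made up 0.261%, 0.194%, 0.178% and 0.151% of the normalized counts. In the HCT116 pairs 20.0% and 28.7% of that sum came from LGALS3BP, a secreted glycoprotein, and in the RPE1 pairs the largest share was 9.17% from STAT2 and 8.79% from SP100.

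**Figure D1:**
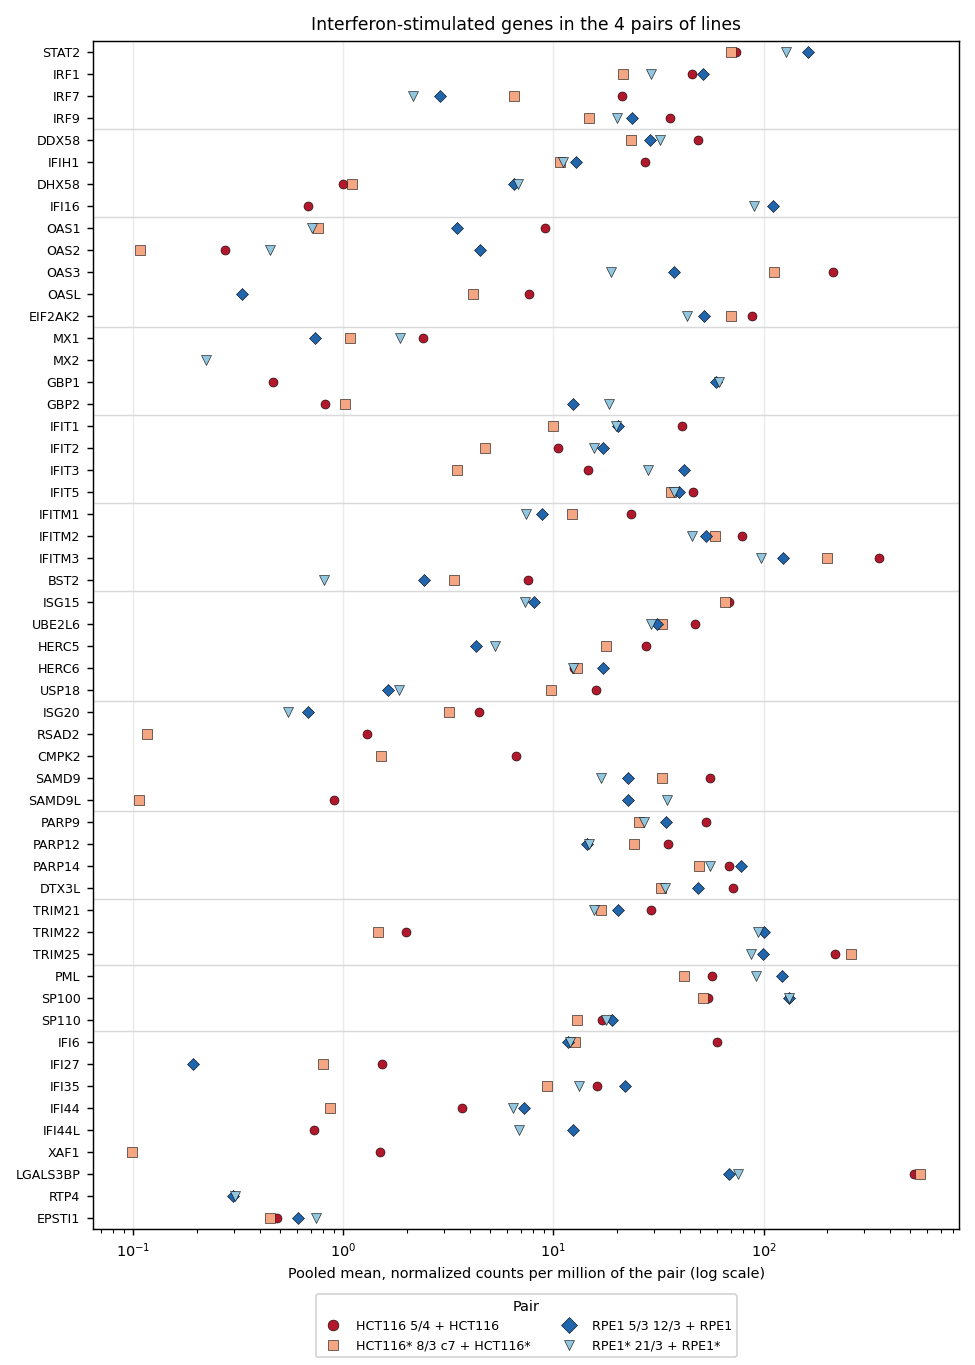
Pooled mean of each member per 1000000 normalized counts of the pair, the scaled mean (x axis, log scale), grouped by role from signalling factors at the top to other interferon-induced genes at the bottom. Each symbol is 1 pair of 1 aneuploid and 1 parental line, with no error bar because the mean is pooled over 6 libraries, and a missing symbol is a gene not listed. LGALS3BP, IFITM3, OAS3 and TRIM25 lie above a scaled mean of 100 in the HCT116 pairs, and the pairs of SAMD9L, IFI16, GBP1, TRIM22 and OAS2 are spread furthest apart.

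Between genes, levels were compared as the scaled mean per kb of merged exons, where the annotation's merged exons are long for some genes, such as 17984 bp for MX1 and 13021 bp for OAS1, which lowers their level on this scale. By the median of the pairs that list them, LGALS3BP stood first at 87.4 per kb, ahead of IFITM3 at 56.9, ISG15 at 42.4 and IFITM2 at 34.8. IFITM3 and IFITM2 sit in membranes and hinder the entry of viruses, and ISG15 is a ubiquitin-like protein that is joined to other proteins. IFI16, a sensor of DNA, had 17.0, UBE2L6, the enzyme that hands on ISG15, had 15.5, and IFI6, a small protein of mitochondria and the endoplasmic reticulum, had 13.2. The next were TRIM25, a ubiquitin ligase that activates RIG-I, at 12.9, STAT2 at 10.8, GBP1, a GTPase that attacks membranes around microbes, at 9.69, TRIM21, an antibody receptor of the cytosol, at 9.61, and IFIT5, which binds viral RNA, at 8.82. The order differed by cell type. LGALS3BP had 153 and 162 per kb in the HCT116 pairs, but in the RPE1 pairs it had 20.1 and 22.1, below IFITM3 at 43.7 and 34.3 and IFITM2 at 33.0 and 28.5, and ISG15 had 9.29 and 8.41. IFI16 and GBP1 rank here on the pairs that list them, which leaves out the HCT116* 8/3 c7 pair.

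Some of these levels hardly differed between pairs. The mean of IFIT5 was 890 and 725 in the HCT116 pairs and 915 and 705 in the RPE1 pairs. UBE2L6 had 911 and 662 in the HCT116 pairs and 716 and 549 in the RPE1 pairs. On the scaled means, the highest and the lowest pair of each of these genes were within 2-fold. The mean of TRIM21 was 562 and 337 in the HCT116 pairs and 469 and 295 in the RPE1 pairs, and IFITM2 had 1529 and 1177 against 1218 and 863. IFITM3 differed more, with 6829 and 4005 in the HCT116 pairs, and 2857 and 1845 in the RPE1 pairs. On the scaled means its highest pair was 3.63-fold above its lowest. Its lowest HCT116 pair was 1.61-fold above its highest RPE1 pair, so the cell types were apart, with the nearest values under 2-fold.

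Between the 2 pairs made from HCT116, many members were higher in the HCT116 5/4 pair. Of 47 members that could be compared, 19 were over 2-fold higher in the HCT116 5/4 pair than in the HCT116* 8/3 c7 pair, where 3.96% of all 14079 genes were. In the other direction 0 of 47 members passed 2-fold, where 2.21% of all genes did. The median member was 1.78-fold higher in the HCT116 5/4 pair and 42 of 47 were above 1, while the median over all genes was 0.993-fold. The 19 members were not of 1 kind: they comprised 3 of 4 signalling factors, 2 of 3 sensors, 3 of 4 IFIT proteins, 1 of 4 of the OAS and PKR group, 1 of 2 dynamin-like and guanylate-binding GTPases, 1 of 4 of the IFITM and tetherin group, 3 of 5 other antiviral effectors, 2 of 4 of the PARP and DTX3L group and 3 of 6 other interferon-induced genes, but 0 of 5 of ISG15 and its enzymes, 0 of 3 TRIM proteins and 0 of 3 proteins of nuclear bodies.

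Among the signalling factors, the mean of IRF7, the factor that amplifies type I interferon, was 408 in the HCT116 5/4 pair and 130 in the HCT116* 8/3 c7 pair, a 3.26-fold difference. IRF9, the DNA-binding partner of STAT2, had 689 and 295, which is 2.43-fold. IRF1, an activator that type II interferon induces, had 877 and 430, a 2.13-fold difference. STAT2, their partner in the same pathway, was almost level at 1417 and 1398, or 1.06-fold. Of the RNA sensors, IFIH1, which encodes MDA5, had 526 and 216 (2.54-fold) and DDX58, which encodes RIG-I, had 935 and 468 (2.08-fold). In the RPE1 pairs IRF9 was at 544 and 379, IFIH1 at 294 and 209, and DDX58 at 661 and 605. DHX58, their regulator LGP2, had 19.3 and 22.2.

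The largest ratios belonged to effectors and to XAF1. OAS1, which makes the messenger that activates RNase L, had a mean of 175 in the HCT116 5/4 pair and 15.1 in the HCT116* 8/3 c7 pair, a 12.1-fold difference. At least 1 line of the first pair therefore had 6.03 times or more of the level of either line of the second. RSAD2, or viperin, which makes a chain-terminating nucleotide, had 24.9 and 2.34, and CMPK2, its neighbour and a nucleotide kinase, had 128 and 30.4, which are 11.1-fold and 4.39-fold. XAF1, which promotes cell death, had 28.6 and 1.99 (15.0-fold), and SAMD9L, a restriction factor of poxviruses, had 17.4 and 2.14 (8.45-fold). The lower values of RSAD2, XAF1 and SAMD9L lay close to the lowest mean listed in that pair, so their ratios are less sure than the others. These 3 genes enter the comparison only through the pair where they are high, and with a mean of at least 10 asked of both pairs 16 of 44 members passed 2-fold, beside 3.09% of all genes, a limit chosen after seeing the data.

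IFIT proteins, which bind the ends of foreign RNA, were higher in the HCT116 5/4 pair too, IFIT5 by less than 2-fold. The mean of IFIT1 was 790 and 200 (4.11-fold), of IFIT3 283 and 69.9 (4.21-fold) and of IFIT2 202 and 94.8 (2.22-fold), set against 1.28-fold for IFIT5. IFI6 had 1152 and 254 (4.73-fold), and IFI44, a cytosolic protein, had 71.1 and 17.3 (4.27-fold). BST2, or tetherin, which holds budding virus at the cell surface, had 146 and 67.1 (2.26-fold), and MX1, a dynamin-like GTPase that traps viral proteins, had 46.3 and 21.6 (2.23-fold). DTX3L had 1380 and 650 (2.21-fold) and PARP9 had 1021 and 514 (2.07-fold). DDX58 and PARP9 fall just below 2-fold with means as deposited, which leaves 17 members past it, beside 3.58% of all genes. By contrast TRIM25 had 4231 and 5235, LGALS3BP had 10070 and 11148, and GBP2, a guanylate-binding protein, had 15.7 and 20.5, so each of these was lower in the HCT116 5/4 pair, by less than 2-fold. ISG15 itself was level at 1314 and 1312.

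IFI16, GBP1 and IFI44L were listed in the HCT116 5/4 pair, at 13.0, 8.89 and 14.0, and not in the HCT116* 8/3 c7 pair, so no ratio is given for them. The pairs also differ in the H2B-GFP construct and in their parental cultures, which cannot be told apart from the extra chromosomes in pooled means. In RNA from whole cultures, more cells that express a gene and more RNA per cell cannot be told apart either.

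**Figure D2:**
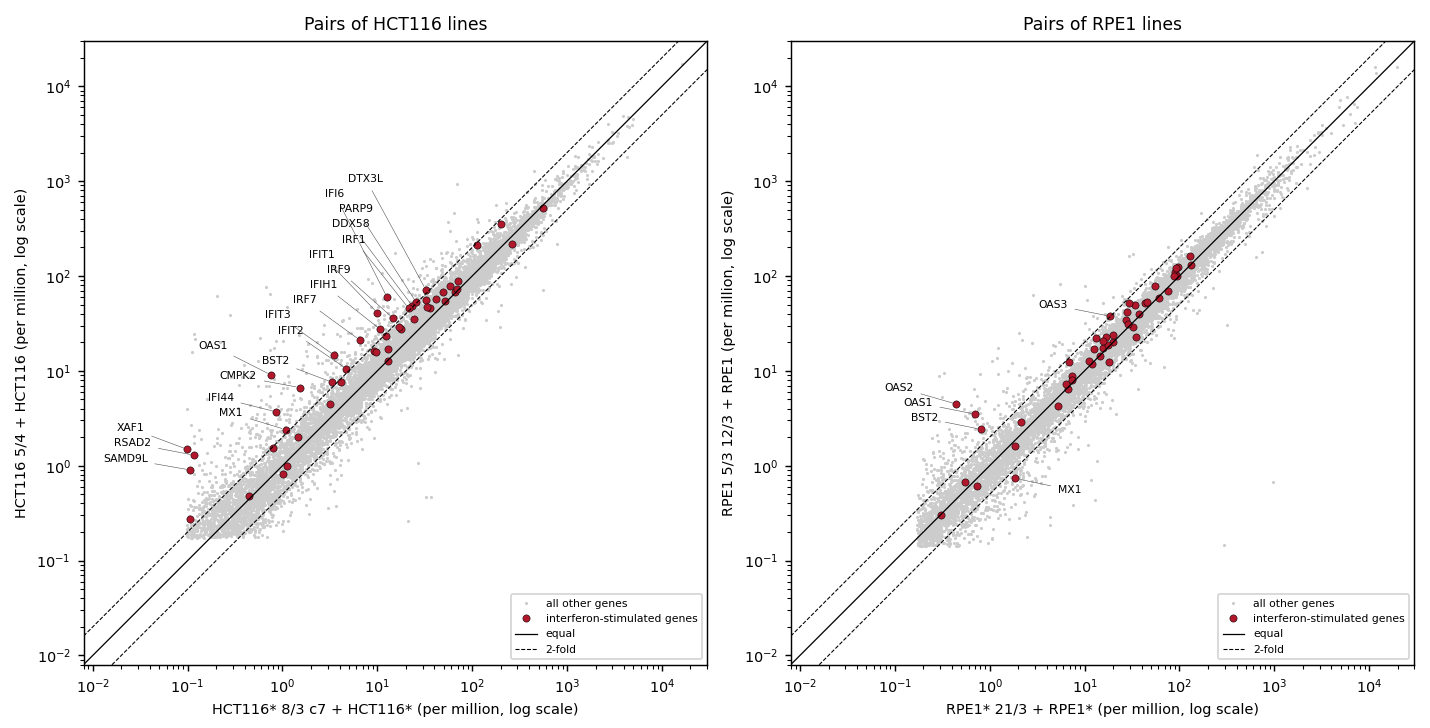
Scaled pooled means (per 1000000 normalized counts of the pair) on log axes, with the 2 HCT116 pairs on the left and the 2 RPE1 pairs on the right. Each point is 1 gene, members are red, the solid line is equality and the dashed lines are 2-fold, and members past 2-fold with a mean of at least 10 in either pair are named. On the left 20 members lie above the upper dashed line, 19 of them named and the other OAS2 with both means under 10, and 0 lie below the lower one, and on the right 4 lie above and 1 below.

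The RPE1 pairs lay closer together. Of 47 members compared, 4 were over 2-fold higher in the RPE1 5/3 12/3 pair than in the RPE1* 21/3 pair, beside 1.99% of all 13365 genes, and 1 was over 2-fold higher in the RPE1* 21/3 pair, beside 2.32% of all genes. The median member was 1.16-fold higher in the RPE1 5/3 12/3 pair, with 34 of 47 above 1, and the median gene was at 0.994-fold. With the means as deposited, which the larger total of the RPE1 5/3 12/3 pair raises, 7 members passed 2-fold in place of 4, and the share of all genes rose to 3.46%.

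The oligoadenylate synthetases that sit side by side on chromosome 12 made up 3 of the 4. The mean of OAS2 was 103 in the RPE1 5/3 12/3 pair and 8.42 in the RPE1* 21/3 pair, a 10.0-fold difference. It reaches a mean of 10 only in the pair where it is high, and with that mean asked of both pairs 3 of 46 members passed, beside 1.26% of all genes. OAS1 had 80.3 and 13.3, which is 4.94-fold. OAS3, the longest of the 3 enzymes, had 865 and 354, which is 2.01-fold and falls to 1.99-fold with the median gene set level. The member on another chromosome was BST2, with 55.7 and 15.2 (3.01-fold). The member higher in the RPE1* 21/3 pair was MX1, on chromosome 21, with 35.1 against 16.9, so that the ratio was 0.396. In the RPE1 pairs the IFIT proteins, which separated the HCT116 pairs, differed by 1.03-fold to 1.48-fold, and IFI6 had 271 and 227.

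Chromosomes gained by the lines carried 8 of the 54 members. If 1 line of a pair followed its copies and all else stayed level, the pooled ratio would be 1.25 for 3 copies and 1.5 for 4. The genes at large came near these values. The median over 684 genes of chromosome 12 was 1.22-fold in the RPE1 5/3 12/3 pair over the RPE1* 21/3 pair, and 3.22% of them passed 2-fold, against 1.97% of genes elsewhere. STAT2, also on chromosome 12, was at 3751 and 2423, a ratio of 1.27, whereas the ratios of the 3 OAS neighbours were 2.01 to 10.0. The OAS genes also differed between the HCT116 pairs, where chromosome 12 is not gained. Those ratios were 12.1 for OAS1, 1.92 for OAS3 and 2.55 for OAS2, whose means there were under 10. OASL, an OAS-like protein on chromosome 12, was at 7.54 in the RPE1 5/3 12/3 pair and not listed in the RPE1* 21/3 pair, and in the HCT116 pairs it was at 148 and 82.7. The RPE1 pairs also differ in the H2B-GFP construct and in their parental cultures, which cannot be told apart from the extra chromosomes here.

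Over the 123 genes of chromosome 21 the median was 1.33-fold in the RPE1* 21/3 pair over the RPE1 5/3 12/3 pair. Of these genes 11.4% passed 2-fold, against 2.23% of genes elsewhere. MX1 was among these 11.4%. MX2, its neighbour, a GTPase that blocks HIV, was listed only in the RPE1* 21/3 pair, at 4.19, and so stayed under a mean of 10 in all pairs. The other member under 10 in all pairs was RTP4, a transporter of receptors to the membrane, at 6.89 and 5.74 in the RPE1 pairs and not listed in the HCT116 pairs. On chromosome 5 lies IRF1. The median gene of chromosome 5 was 1.37-fold higher in the HCT116 5/4 pair than in the HCT116* 8/3 c7 pair. Of the genes of chromosome 5, 17.5% passed 2-fold, against 3.33% of genes elsewhere, and the ratio of IRF1 was 2.13. In the RPE1 pairs the mean of IRF1 was 1191 and 553, a ratio of 1.77, with a median over chromosome 5 of 1.22. Of the 54 members, 0 lie on chromosome 8.

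Between cell types, the members split. Of 44 members listed in all pairs, 5 were over 2-fold higher in both RPE1 pairs than in both HCT116 pairs, the lowest RPE1 value being set over the highest HCT116 value, and 8.41% of all 12963 genes were so. In the opposite direction 8 of 44 were over 2-fold higher in both HCT116 pairs, beside 17.7% of all genes. On this scale the shares of members, 11.4% and 18.2%, are near those of all genes. The median gene was lower in the RPE1 pairs by this scale, at 0.775-fold, or -0.37 on the log2 scale, and the median member was at 0.838-fold, so the split depends on the scale: with means as deposited it was 5 members against 6, beside 8.86% and 14.7% of all genes, and with the median gene set level it was 10 against 6, beside 12.0% and 11.3%.

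The members higher in RPE1 came from several groups. The mean of TRIM22, a ubiquitin ligase, was 2302 and 1771 in the RPE1 pairs and 38.3 and 29.2 in the HCT116 pairs, so that the lowest RPE1 pair was 47.1-fold above the highest HCT116 pair. SAMD9L had 519 and 654 against 17.4 and 2.14, which is 25.0-fold. GBP2 had 285 and 346 against 15.7 and 20.5 (12.1-fold), and DHX58 had 150 and 128 against 19.3 and 22.2 (5.90-fold). SP100, a part of the nuclear bodies that PML builds, had 3036 and 2506 against 1044 and 1039 (2.43-fold). Both IFI16, at 2558 and 1696 in the RPE1 pairs, and GBP1, at 1360 and 1155, were at 13.0 and 8.89 in the HCT116 5/4 pair and not listed in the other HCT116 pair, so they are outside the count of 44.

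The members higher in HCT116 included 3 of the 5 in the group of ISG15 and its enzymes. ISG15 had 1314 and 1312 in the HCT116 pairs and 185 and 138 in the RPE1 pairs, an 8.12-fold difference of the nearest values. USP18, which takes ISG15 off proteins and damps the receptor, had 307 and 196 against 37.5 and 34.6 (5.32-fold), and HERC5, the ligase that puts it on, had 533 and 355 against 98.1 and 99.5 (3.36-fold). UBE2L6, the enzyme that hands on ISG15, did not pass 2-fold, with 1.06-fold between the nearest values. LGALS3BP had 10070 and 11148 against 1583 and 1430 (6.90-fold), ISG20, an exonuclease of RNA, had 85.2 and 64.1 against 15.6 and 10.3 (4.73-fold), and OAS3 had 4133 and 2243 against 865 and 354 (2.98-fold). IRF7 had 408 and 130 against 66.5 and 40.6 (2.25-fold) and TRIM25 had 4231 and 5235 against 2295 and 1654 (2.20-fold), and both fell below 2-fold under each of the other scales tried, at 1.96 and 1.76 for IRF7 and at 1.84 and 1.72 for TRIM25. CMPK2, RSAD2 and XAF1 were listed in both HCT116 pairs and in neither RPE1 pair. In the HCT116* 8/3 c7 pair RSAD2 and XAF1, at 2.34 and 1.99, were below the lowest mean that either RPE1 pair lists. Not being listed in RPE1 therefore does not place RSAD2 and XAF1 below that HCT116 pair.

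**Figure D3:**
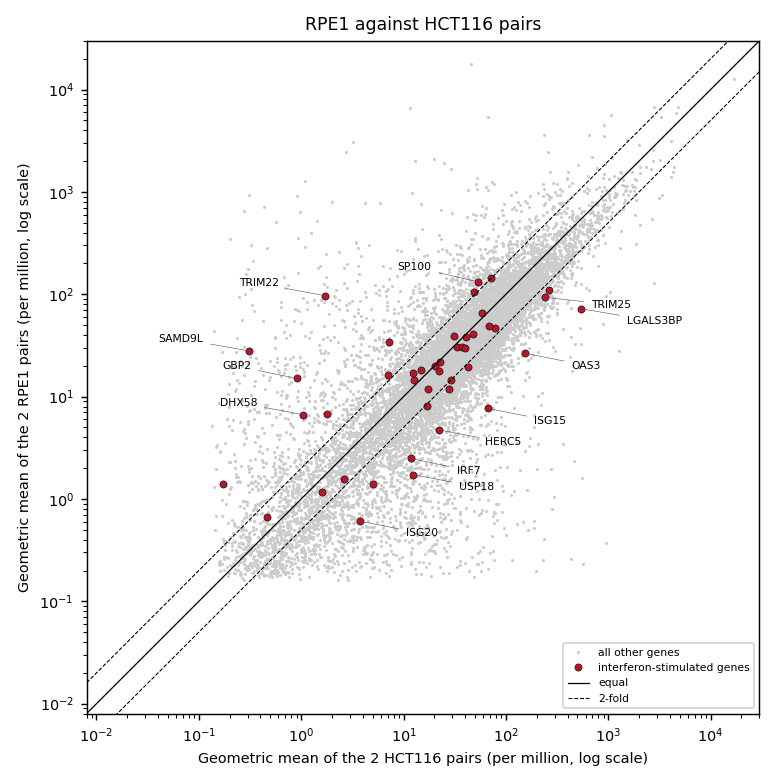
Geometric mean of the scaled means of the 2 HCT116 pairs (x axis) and of the 2 RPE1 pairs (y axis), both on log scales, for genes listed in all pairs. Each point is 1 gene, members are red, the lines mark equality and 2-fold, and the 5 and 8 members past 2-fold between all pairs of the cell types are named. TRIM22, SAMD9L, GBP2 and DHX58 lie highest above the upper 2-fold line among the members named, and ISG15, USP18, LGALS3BP and ISG20 lie below the lower one, among many other genes on both sides.

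Members that are neighbours in the genome are set side by side next, with examples chosen after their values had been seen. Coordinates of genes are from GENCODE on GRCh37. SAMD9 and SAMD9L lie in the same direction on chromosome 7 (92728826 to 92777698), 12032 bp apart. The mean of SAMD9, which was 1068 and 661 in the HCT116 pairs, was 523 and 317 in the RPE1 pairs, the opposite order from SAMD9L. HERC6 and HERC5 lie on chromosome 4 (89299891 to 89427314), 14020 bp apart, and HERC6 was at 242 and 260 in the HCT116 pairs and at 396 and 235 in the RPE1 pairs, close to level where HERC5 was not.

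OAS1, OAS3 and OAS2 follow each other on chromosome 12 between 113343661 and 113449528. In all 4 pairs the mean of OAS3 was above that of OAS1 and OAS2, also per kb of exon, where OAS3 had 11.9, 6.20, 2.08 and 1.04 scaled counts per kb. OAS2 was at 5.27 and 2.15 in the HCT116 pairs, both under 10, and at 103 and 8.42 in the RPE1 pairs, so that, also per kb of exon, it came above OAS1 in the RPE1 5/3 12/3 pair only. By contrast GBP1 and GBP2, on chromosome 1 from 89517565 to 89616139, were both high in RPE1 and low in HCT116. IFI44L and IFI44 lie on chromosome 1 from 79085587 to 79129763. IFI44L was at 286 and 129 in the RPE1 pairs and at 14.0 in the HCT116 5/4 pair, and IFI44 was at 167 and 121 against 71.1 and 17.3, with 1.74-fold between its nearest values. PARP9 and DTX3L, which overlap on chromosome 3 from 122246771 to 122294050 and are read in opposite directions, kept together. PARP9 was at 793 and 512 in the RPE1 pairs, and DTX3L at 1127 and 641. They had ratios of 2.07 and 2.21 between the HCT116 pairs and of 1.27 and 1.44 between the RPE1 pairs. The counting options that the methods state set no strand and no counting of a read for several genes. Reads in their overlap, and in that of CMPK2 and RSAD2, may therefore be missing from both genes. The overlaps are those of GENCODE genes, not of the RefSeq genes counted.

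IFIT2, IFIT3, IFIT1 and IFIT5 lie in this order on chromosome 10 between 91043451 and 91181362. IFIT3 was at 966 and 534 in the RPE1 pairs, IFIT2 at 397 and 294, and IFIT1 at 468 and 374. IFIT3 and IFIT2 were thus above both HCT116 values in RPE1, whereas IFIT1 lay between its HCT116 values. IFITM2, IFITM1 and IFITM3, on chromosome 11 from 303655 to 329475, are close copies of each other. Of all stretches of 100 bases, the read length, in the longest transcript of IFITM1, 34.0% also occur in other GENCODE gene models. These are a model without a gene name, which comes first by number shared, and IFITM3. The shares were 6.24% for IFITM3 and 2.09% for IFITM2, for which the unnamed model is the only other one. What the IFITM genes share with each other was not counted apart, so how far reads are divided among them is uncertain. The share was 88.0% for DDX58, where the other model is also one without a gene name. It was 15.7% for IRF9, 14.3% for IFI6, 9.10% for IFIT2, 3.08% for USP18 and 1.38% for GBP1. Reads were counted per RefSeq gene, and whether the other GENCODE models are among the genes counted was not looked up. What these shares mean for the levels is therefore not known.

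**Figure D4:**
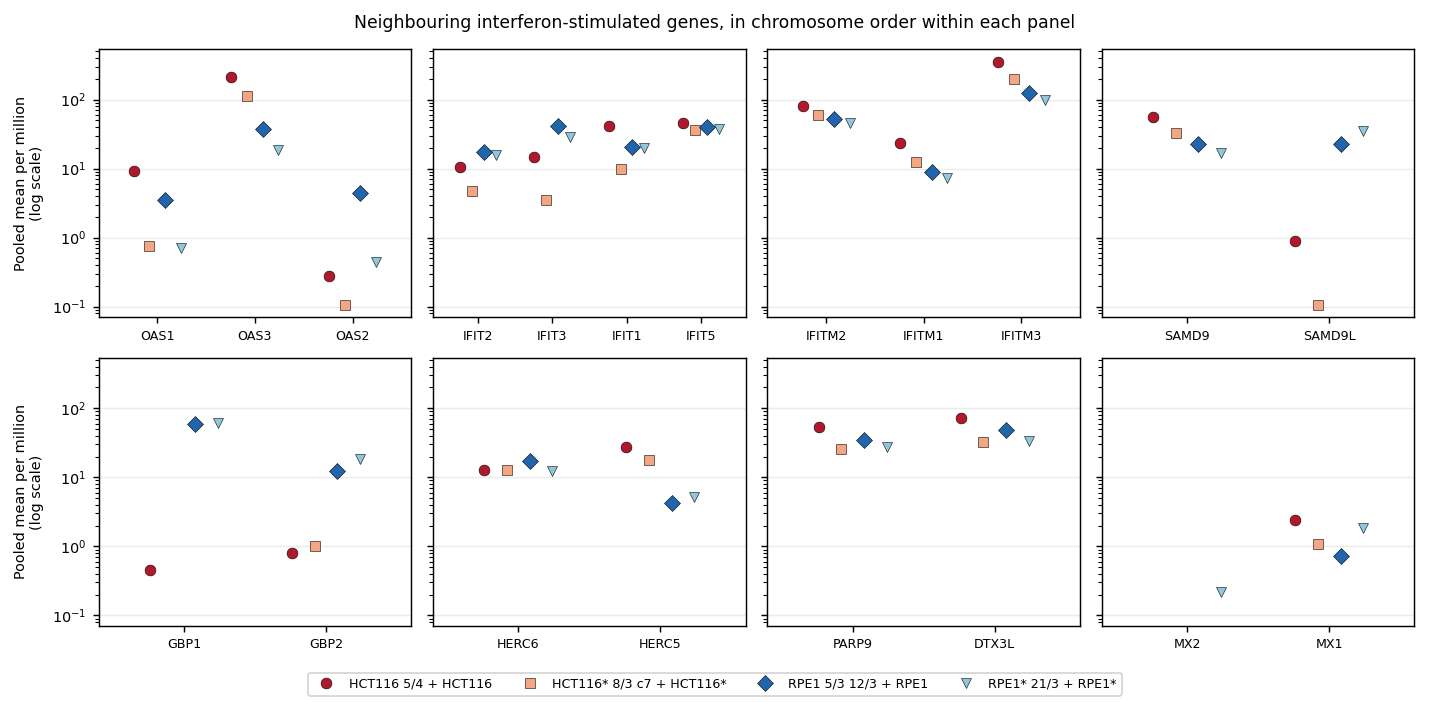
Scaled pooled mean (y axis, log scale, shared by all panels) of members that lie next to each other, in chromosome order within each of the 8 panels. Each symbol is 1 pair of lines and a missing symbol is a gene not listed. SAMD9L and HERC5 separate HCT116 from RPE1 in opposite directions while SAMD9 and HERC6 lie closer together, and GBP1 and GBP2 separate them in the same direction.

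Members with and without the promoter letters are set side by side for these differences, and whether the letters bear on them was not tested. Among members with a promoter window that were compared between the HCT116 pairs, 11 of 25 with a match and 6 of 13 without passed 2-fold, and their median ratios were 1.90 and 1.74. In the RPE1 pairs 2 of 26 with a match and 1 of 12 without were higher in the RPE1 5/3 12/3 pair, with medians of 1.20 and 1.16. Of the members without a window, 2 of 9 passed 2-fold between the HCT116 pairs (median 1.37) and 1 of 9 between the RPE1 pairs (median 1.11). XAF1 and OAS1, at the top of the HCT116 list, had no match in their windows, and RSAD2, next at 11.1-fold, had matches. ISG15, with 3 matches, was level between the HCT116 pairs.

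Outside the members, the receptors and kinases were listed in all pairs and most ligands in none. All 6 receptor chains and all 3 JAK kinases looked up had means of at least 10 in all pairs. The mean of IFNAR1, a chain of the type I receptor, was 1305 and 1229 in the HCT116 pairs and 1919 and 1956 in the RPE1 pairs. IL28RA, the chain particular to the type III receptor, was at 306 and 386 in the HCT116 pairs and at 35.5 and 46.3 in the RPE1 pairs. JAK1, which serves all of these receptors, had 2503 and 2690 against 4662 and 3676. Of the ligands, IFNB1, IFNK, IFNG, IL29, IL28A and IL28B were listed in none of the pairs. Each gene outside the members was looked up under a single name, so a gene listed under another name would be missed. IFNE, an interferon of epithelia, was at 10.1 and 5.67 in the HCT116 pairs and at 89.3 and 41.7 in the RPE1 pairs, and IFNA1 was listed only in the RPE1 pairs, at 21.5 and 7.47.

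Of the adaptors and kinases behind the sensors, 5 of 6 were at 10 or more in all pairs and MB21D1, which encodes cGAS, was listed in none under that name. TMEM173, which encodes STING, had 971 and 802 in the HCT116 pairs and 1365 and 1030 in the RPE1 pairs. IKBKE, a kinase of IRF3 and IRF7, had 137 and 170 against 553 and 358. MAVS, the adaptor of the RNA sensors, was at 3434 to 6890. The negative regulators SOCS1, SOCS3 and PIAS1 were all at 10 or more in all pairs, with SOCS1 at 75.9 and 66.6 in the HCT116 pairs and at 29.0 and 22.4 in the RPE1 pairs.

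The other 12 members were EIF2AK2, IFITM1, HERC6, SAMD9, PARP12, PARP14, PML, SP110, IFI27, IFI35, IFI44L and EPSTI1. EIF2AK2 encodes PKR, which stops translation on sensing double-stranded RNA, PML builds nuclear bodies, and PARP12 and PARP14 add ADP-ribose to proteins. Their means ran from 4.41 to 2809. Between the HCT116 pairs 11 of them had ratios from 0.970 to 1.90, and between the RPE1 pairs 11 had ratios from 0.821 to 1.81, all within 2-fold because members past it were described before. Values of HERC6, SAMD9 and IFI44L were given above for their place beside other members, and were chosen after the values had been seen.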

How the data were processed

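RNA of 8 lines with 3 libraries each was sequenced by the study as single reads of 100 bp. Per the study's methods and the submitters' processing notes, adapters were removed with cutadapt, reads were mapped to hg19 with TopHat2 2.0.10 keeping 1 location per read, exon reads were counted per RefSeq gene with featureCounts 1.4.3, and DESeq2 was used for normalization and comparison. Each of the 4 deposited tables covers an aneuploid line and its parental line. The signal used here is the deposited mean per gene, which the authors obtained as the average over the 6 libraries of counts divided by size factors. The tables also hold the authors' log2 fold changes, standard errors, statistics and p-values of the same comparison, which were not used. No values of single libraries were at hand, so the count model that the design foresaw (edgeR, with DESeq2 as an alternative) was not run, no spread between replicates is known, and means were compared without a test.

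Means were divided by the total of their table, times 1000000, and between genes also by the length of merged exons (GENCODE on GRCh37, 94.6% to 95.1% of genes matched). A difference was counted past 2-fold with a mean of at least 10 in at least 1 of the tables compared. Values in all tables are given for the 12 members highest per kb, those past 2-fold between tables, those on a gained chromosome and those under 10 everywhere. The members, lists and limits were chosen with earlier results of these data known. Genes within 100000 bp were called neighbours. Python 3.11.15, numpy 2.4.6, pandas 2.3.3 and matplotlib 3.10.9 were used, and the comparison was tested on simulated data. Other folds, scales, minimums and motifs were tried.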

Additional observations from a re-analysis of the deposited data

How the results depend on the processing

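Of the counts and medians recomputed, 55 stayed within their limit (1.5 times for counts) and 11 did not, of which 8 were at another fold. Past 1.5-fold in place of 2-fold, 10 members were higher in both RPE1 pairs (13.0% of all genes), 29 in the HCT116 5/4 pair than in the HCT116* 8/3 c7 pair (9.38%), 7 in the RPE1 5/3 12/3 pair (4.73%) and 2 in the RPE1* 21/3 pair (6.64%). Past 4-fold, the counts were 4 members higher in both HCT116 pairs (6.0%), 9 in the HCT116 5/4 pair (1.14%), 2 in the RPE1 5/3 12/3 pair (0.479%) and 0 in the RPE1* 21/3 pair (0.426%). With means as deposited, 7 members were higher in the RPE1 5/3 12/3 pair (3.46%). With the median ratio over genes set level, 10 were higher in both RPE1 pairs (12.0%). With a gene that a pair did not list set to the lowest mean listed there, 8 were higher in both RPE1 pairs (12.0%). That alternative was chosen after seeing the data. So were the comparisons of pairs with no minimum mean and with a mean of at least 10 in both pairs. With no minimum mean, 20 members were higher in the HCT116 5/4 pair (4.33%) and 4 in the RPE1 5/3 12/3 pair (1.91%). Of the 74 ratios of single genes recomputed, 67 stayed past 2-fold, 7 no longer passed it and 0 reversed. The 7 belong to IRF7, TRIM25, DDX58, PARP9 and OAS3. DDX58 and PARP9 came to just under 2-fold with means as deposited, and so did OAS3 with the median ratio set level. The motif extended by 1 base occurred in 28 of 43 members against 4.38% of genes, and shortened by 1 base in 30 against 23.9%. No paired analysis was possible because the pooled means hold no value of a single library, and for the same reason no replicate could be left out and neither edgeR nor DESeq2 was run.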
